A study of Mus musculus with 4 samples.

Results

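Cyclins and cyclin-dependent kinases (CDKs), apart from Cdk6, were examined for peaks of NAT10, the enzyme that places N4-acetylcytidine on RNA. Members were all genes whose symbol is Cdk with a number or Ccn with a letter, and 44 such genes were found in the RefSeq mouse gene table. Of these 44 genes 14 had a peak in the deposited list, with 23 peaks in all, out of 4172 distinct peaks on 1629 gene identifiers. The assay was eCLIP, in which ultraviolet light fixes proteins to bound RNA, the protein of interest is recovered with an antibody, and the fragments of RNA held by it are sequenced. All 4 libraries came from wild-type 32D cells, a mouse bone marrow line grown with interleukin-3 at 10 ng/mL and irradiated with 150 mJ at 254 nm. Of these libraries 2 were immunoprecipitates with a NAT10 antibody and 2 were inputs without an antibody, and all the groups shared the same genotype and culture. The libraries are from 1 cell line, no cells lacking NAT10 were among them, and the labels do not tell whether replicate libraries stem from independent cultures.

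Cyclins are regulatory proteins that bind and switch on CDKs. One branch of the family drives the cell cycle: D-type cyclins act with Cdk4 and Cdk6 in G1, E-type and A-type cyclins with Cdk2 around DNA replication, and B-type cyclins with Cdk1 in mitosis. Another branch acts on RNA polymerase II and on RNA processing, and its members usually stay at steady levels while cell cycle cyclins come and go through synthesis and degradation. A few members belong to neither branch. Blood progenitors depend on D-type cyclins to enter the cycle after a cytokine signal.

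Each peak in the list carries the authors' own fold of immunoprecipitate over input, read here as log2, the authors' own p, read as -log10 p, and the part of the mRNA it lies in, which the authors gave as exon, 5' UTR or 3' UTR. The list joins all libraries, so no value has a replicate error, and none of the differences described here was tested. Nothing below 3.00 by log2 fold or below 3.07 by -log10 p was listed. A gene without a listed peak is therefore not shown to be unbound, and mRNA levels, which were not used here, can limit which genes reach the list. The depth of the libraries is unknown here, as their totals were not used. Of 14 myeloid progenitor and cytokine receptor genes 6 had a peak (Myb, Gata2, Csf2rb, Srgn, Ptprc and Prtn3). The other 8, Csf2rb2, Il3ra, Kit, Mpo, Elane, Ctsg, Cebpa and Spi1, had none. Of 13 B and T lymphoid genes none had a peak. These counts do not establish the cell type. Over all protein-coding genes 7.33% had a peak, so 0 of 13 is near the background. The cell type label calls the cells lymphoblastocytes, and peaks cannot show whether a marker without one was expressed.

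A listed peak was found on 31.8% of the members (14 of 44, 95% interval 18.6 to 47.6), while 7.33% of all 21900 protein-coding genes had one. The intervals of shares are exact Clopper-Pearson intervals and cover counting error only. Among members with a transcriptional role 8 of 14 had a peak (57.1%, 28.9 to 82.3), among cell cycle members 4 of 14 (28.6%, 8.39 to 58.1), and among the others 2 of 16 (12.5%, 1.55 to 38.3). The share of the others is near the background, as its interval holds 7.33%. The intervals of the transcriptional and the cell cycle share overlap. Cyclins and kinases were listed about equally often, 8 of 25 cyclins (32%) and 6 of 19 CDKs (31.6%). Peaks in at least 2 separate regions were found on 5 members (11.4%), all of them cyclins, and on 3.41% of protein-coding genes. The interval for the CDKs, 0 of 19, runs up to 17.6% and holds 3.41%, so their absence is no result about CDKs. A peak with a -log10 p of at least 5 was found on 5 members as well, Ccnd2, Cdk2, Ccnl2, Cdk13 and Ccng1. Their share of 11.4% has an interval of 3.79 to 24.6, which holds the 4.1% of protein-coding genes with such a peak. The gene span in the RefSeq table had a median of 21574.5 nt for the 14 listed members and of 17767 nt for the 29 protein-coding members without a peak. All protein-coding genes with a peak had a median span of 29334 nt, against 17146 nt over all protein-coding genes.

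The peaks on these genes were weak for this list. Their log2 folds ran from 3.50 to 5.27 with a median of 4.19, which is 18.3-fold, while the median over all peaks was 4.60, which is 24.3-fold. None of the 23 peaks reached the upper quartile of all peaks, either by fold (5.29) or by -log10 p (10.6). Above the list's median fold there were 5 of 23 peaks (21.7%), against 49.2% of all peaks. These 5 peaks lay on 4 members (9.09%), Ccnd2, Ccnl2, Cdk13 and Ccng1, and 3.95% of protein-coding genes had a peak above that median. The highest -log10 p was 7.73, and the median was 3.82 against 5.68 over all peaks. The strongest peak per gene had a median of 4.28 over the 14 genes and of 4.69 over all gene identifiers with a peak. Cdk6, the kinase left out of this group, alone had 20 peaks with a median log2 fold of 5.44 and a highest of 7.41. Width went the other way: member peaks had a median of 102 nt and lay between 50 and 161 nt, while all peaks had a median of 79 nt.

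**Figure D1:**
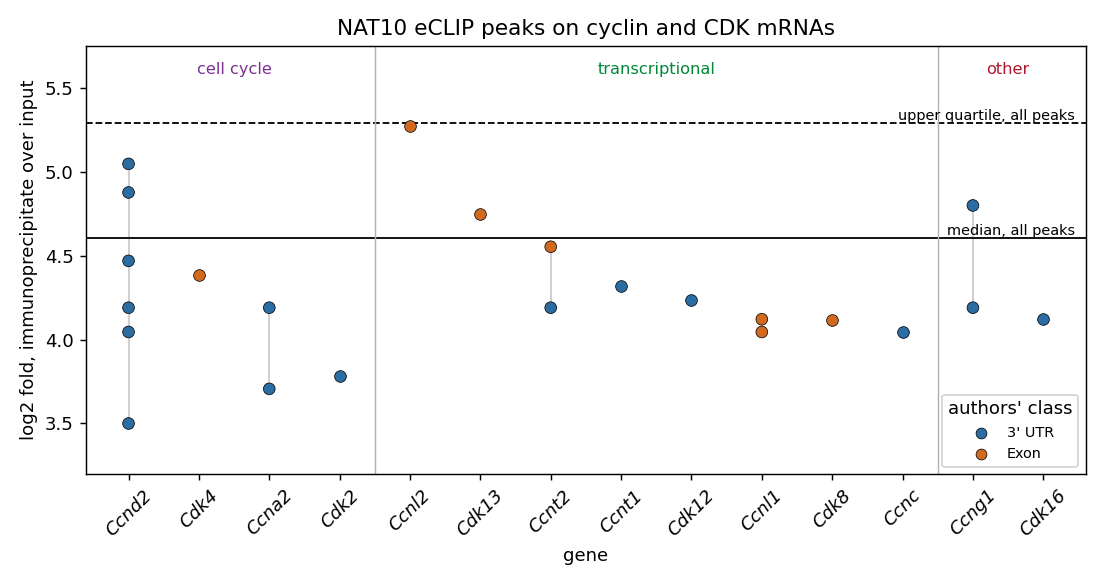
Log2 fold of immunoprecipitate over input (vertical axis) for each of the 23 peaks on the 14 listed genes (horizontal axis), coloured by the authors' class, with lines for the median (4.60) and the upper quartile (5.29) of all listed peaks. Each point is 1 peak without an error, and the Ccnl2 point at 5.27 is the highest, just under the upper quartile line.

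Folds in this list come in steps. Of the distinct folds 28.8% had another fold 0.5 above them (within 2e-06), 24.7% had one 1 above, and none had one 0.4 or 0.6 above. The -log10 p of 3.27, the most common in the list, belonged to 6 member peaks (26.1%), on Ccnd2, Cdk4, Ccnc, Ccnl1, Cdk12 and Cdk8, and to 7.55% of all peaks. A peak of Ccnd2, that of Ccnc and one of Ccnl1 had the same fold and the same p, a pair of values shared by 84 peaks in the list. Such peaks have no order among themselves.

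Among the cell cycle members, Ccnd2 carried most of the signal. It encodes cyclin D2, which starts the G1 phase with Cdk4 and Cdk6 and is induced by cytokines in blood cells. Ccnd2 had 6 peaks in 5 separate regions, all in the 3' UTR, between 127102353 and 127105943 on the minus strand of chromosome 6. From 5' to 3' the log2 folds of Ccnd2 were 3.50, 4.19, 4.88, 4.05, 4.47 and 5.05, and the -log10 p were 3.82, 7.11, 5.81, 3.27, 5.67 and 6.88. The first 4 peaks ended 879 nt from the first listed base, followed by gaps of 1179 nt and 1220 nt before the 5th and the 6th peak. The strongest by fold, 161 nt wide, was the last one, at 127102353 to 127102513, and the weakest, 50 nt wide, was the first one. The 2nd and the 3rd peak touched. The 6 peaks covered 615 nt of a stretch of 3591 nt. The other D-type cyclin genes, Ccnd1 and Ccnd3, had no listed peak.

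Cdk4, the kinase partner of D-type cyclins, had a single peak, and it was the only exon peak of a cell cycle member. The Cdk4 peak lay on the plus strand of chromosome 10 at 126901702 to 126901785, with 4.38 by log2 fold and a -log10 p of 3.27. Thus D-type cyclins and Cdk4 had 2 of 4 members listed, beside 7.33% of all protein-coding genes. In the RefSeq table the spans of 8 of the 14 listed members overlap another gene: Cdk4 (Tspan31), Ccnd2 (9330179D12Rik), Ccna2 (Exosc9), Cdk2 (Pmel), Ccnc (Tstd3), Cdk12 (Gm38963 and Mir5119), Cdk13 (Mir466i) and Ccnt1 (9330020H09Rik). The sources used here do not say whether the authors used the strand to name genes.

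Of the 6 genes of the E and A stage 2 had peaks, Ccna2 and Cdk2, beside 7.33% of all protein-coding genes. No interval was taken for so few genes. Ccna2 encodes cyclin A2, which acts with Cdk2 in S phase and with Cdk1 towards mitosis. Its 2 peaks lay in the 3' UTR on the minus strand of chromosome 3, 150 nt apart, with log2 folds of 3.71 (36619565 to 36619639) and 4.19 (36619304 to 36619414). The upstream Ccna2 peak had the lower fold but the higher -log10 p, 4.55 against 3.68. Cdk2, the kinase of the G1 to S transition, had 1 peak in the 3' UTR at chromosome 10, 128533843 to 128533996, minus strand. Its log2 fold of 3.78 was the lowest strongest peak of any listed member, but its -log10 p of 7.73 was the highest of all 23 peaks. Only 10.0% of all peaks had a lower fold than the Cdk2 peak, while 64.6% had a lower -log10 p. Fold and p therefore rank this peak differently within the list. Ccna1, Ccne1, Ccne2 and Cdk3, which the RefSeq table lists as a transcribed pseudogene, had no peak.

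No gene of the mitotic stage was listed. Cdk1, the kinase that drives entry into mitosis, and the B-type cyclin genes Ccnb1, Ccnb2 and Ccnb3 had no peak, 0 of 4 members. At the background of 7.33% of protein-coding genes, 0 of 4 is no result about this stage.

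**Figure D2:**
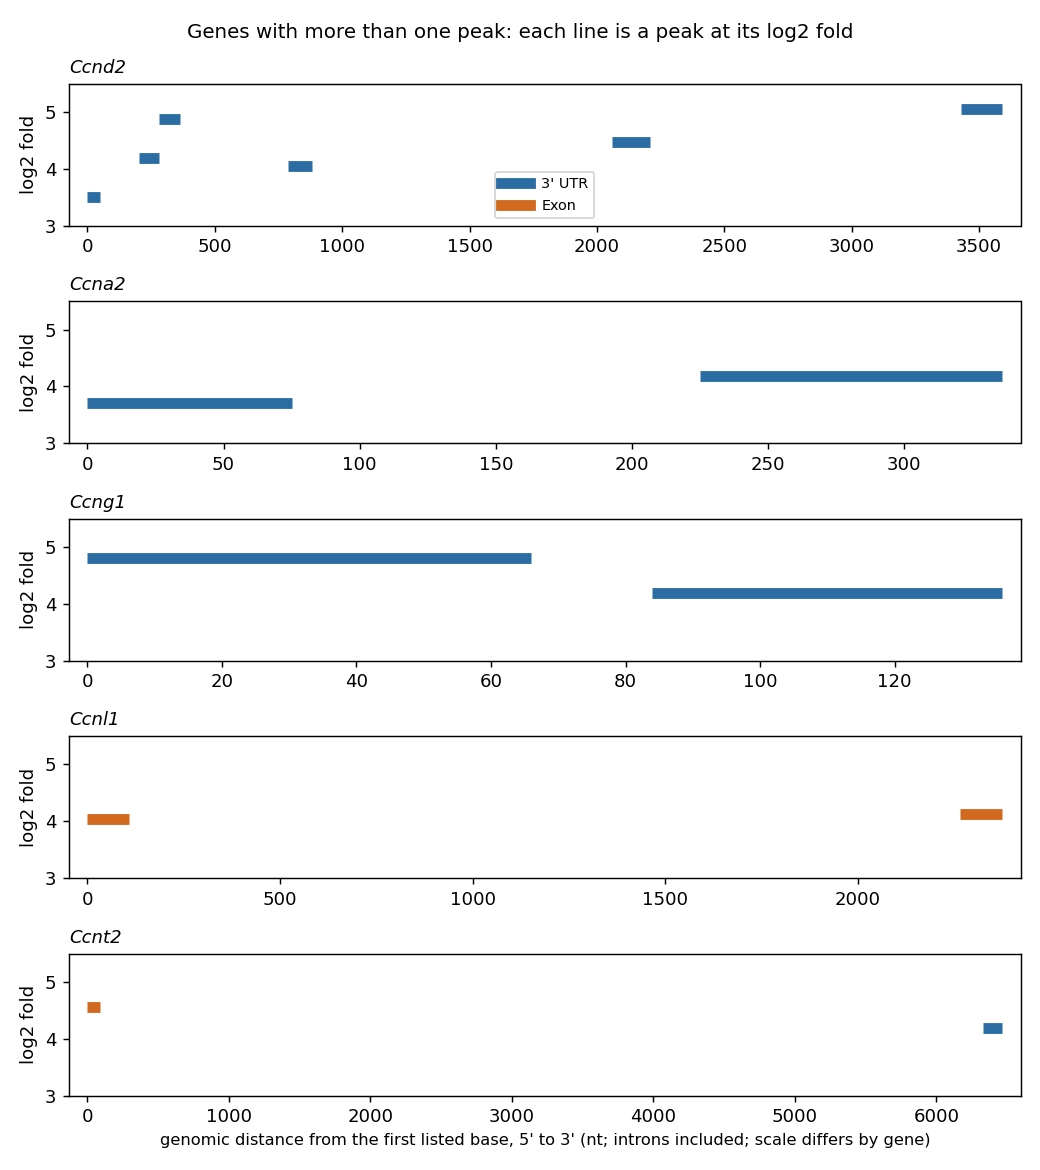
Position of the peaks (horizontal axis, genomic distance in nt from the first listed base, 5' to 3', a separate scale for each gene) and log2 fold (vertical axis) for the 5 genes with more than 1 peak; each line is 1 peak, coloured by class. Ccnd2 has 6 peaks spread over 3591 nt of its 3' UTR, the peaks of Ccng1 and Ccna2 lie 18 nt and 150 nt apart, and those of Ccnl1 and Ccnt2 lie far apart in the genome.

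The transcriptional members are known to work in small complexes, and these complexes, grouped here after the values were seen, were listed in part. In each of 4 groups of 3 genes, 2 had a peak, beside 7.33% of all protein-coding genes. The 4 groups were the kinase module of Mediator, P-TEFb, Cdk12 and Cdk13 with cyclin K, and Cdk11 with cyclin L. The kinase Cdk7 and its cyclin gene Ccnh, which form the CDK-activating kinase of the general factor TFIIH and serve the cell cycle too, had no peak. At that background 0 of 2 is no result about this pair.

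Cyclin L binds Cdk11 and takes part in splicing, and both cyclin L genes had exon peaks alone. Ccnl2 had the strongest peak of all members by fold, 5.27 (38.7-fold), with a -log10 p of 7.54, at chromosome 4, 155904608 to 155904743, plus strand. By fold 74.4% of all listed peaks were weaker. Ccnl1 had 2 exon peaks on the minus strand of chromosome 3, at 65856723 to 65856831 and 65858989 to 65859097. These Ccnl1 peaks had log2 folds of 4.12 and 4.05 with -log10 p of 3.34 and 3.27, close to the lowest -log10 p listed. Both were 109 nt wide and lay 2157 nt apart in the genome. Cdk11b, the kinase partner, had no peak.

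Cdk12 and Cdk13 phosphorylate the tail of RNA polymerase II during elongation, and Cdk12 is known for its part in the expression of DNA repair genes. Cdk13 had an exon peak with 4.75 by log2 fold and a -log10 p of 5.38 at chromosome 13, 17931141 to 17931242, minus strand. Cdk12 had a 3' UTR peak with 4.23 and 3.27 at chromosome 11, 98142067 to 98142171, plus strand. The peaks of these related kinases thus lay in different parts of their mRNAs, and only that of Cdk13 was above the list's median fold. Their cyclin gene Ccnk had no peak.

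P-TEFb, made of Cdk9 and a cyclin T, releases paused RNA polymerase II. Both cyclin T genes were listed and Cdk9 was not. Ccnt2 had an exon peak (log2 fold 4.55, -log10 p 4.90, chromosome 1, 127725224 to 127725310) and a 3' UTR peak (4.19 and 3.68, 127731554 to 127731688), on the plus strand and 6243 nt apart in the genome. It was the only member with peaks in more than 1 class. Ccnt1 had 1 peak of 50 nt in the 3' UTR, with 4.32 and 4.10, at chromosome 15, 98437405 to 98437454, minus strand.

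In the kinase module of Mediator, which links transcription factors to RNA polymerase II, Cdk8 and its cyclin gene Ccnc were listed. Both were near the lower limit of -log10 p. The Cdk8 peak lay in an exon at chromosome 5, 146225632 to 146225763, plus strand, with 4.11 by log2 fold and a -log10 p of 3.27. The Ccnc peak lay in the 3' UTR at chromosome 4, 21749711 to 21749852, plus strand, with a log2 fold of 4.05 and the same -log10 p. The near relative of Cdk8, Cdk19, had no peak.

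Of the 16 members in neither branch, Ccng1 and Cdk16 were listed, both in the 3' UTR. Ccng1 encodes cyclin G1, a target of p53. Its 2 peaks lay 18 nt apart on the minus strand of chromosome 11, with log2 folds of 4.80 (40639995 to 40640060) and 4.19 (40639925 to 40639976) and -log10 p of 5.68 and 3.34. Cdk16, a kinase of the PCTAIRE group, had a peak of 56 nt with 4.12 and 3.34 on the X chromosome, 20565415 to 20565470, plus strand. The 14 without a peak were Ccnf, Ccng2, Ccni, Ccnj, Ccno, Ccnq, Ccny, Cdk5, Cdk10, Cdk14, Cdk15, Cdk17, Cdk18 and Cdk20.

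By count, cell cycle peaks lay in the 3' UTR more often than transcriptional peaks, but this rests on few genes and was not tested. Of the 10 cell cycle peaks 9 lay in the 3' UTR (90%, 95% interval 55.5 to 99.7), and of the 10 transcriptional peaks 4 did (40%, 12.2 to 73.8), with the other 6 in exons. Over all peaks 57.6% lay in the 3' UTR and 36.7% in exons. Ccnd2 supplied 6 of the 9 cell cycle peaks in the 3' UTR, and without it 3 of 4 lay there (75%, 19.4 to 99.4). Counted by gene, a 3' UTR peak was found on 3 of 4 listed cell cycle genes and on 4 of 8 listed transcriptional genes, and an exon peak on 1 and on 5. Among all gene identifiers in the list 70.5% had a 3' UTR peak and 43.3% an exon peak. The cell cycle share by gene, 75% in the 3' UTR, is thus near that of the list. Over all 44 members a 3' UTR peak was found on 9 (20.5%), against 5.2% of protein-coding genes, and an exon peak on 6 (13.6%), against 3.16%. The intervals overlap, peaks of 1 gene are not independent, and the lengths of exons and 3' UTRs were not used. No member had a 5' UTR peak (0 of 44, interval up to 8.04%), which is near the 0.671% of protein-coding genes with one. Among listed genes it was 0 of 14 members, beside 9.33% of all gene identifiers in the list. Neither count is a result about the members.

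**Figure D3:**
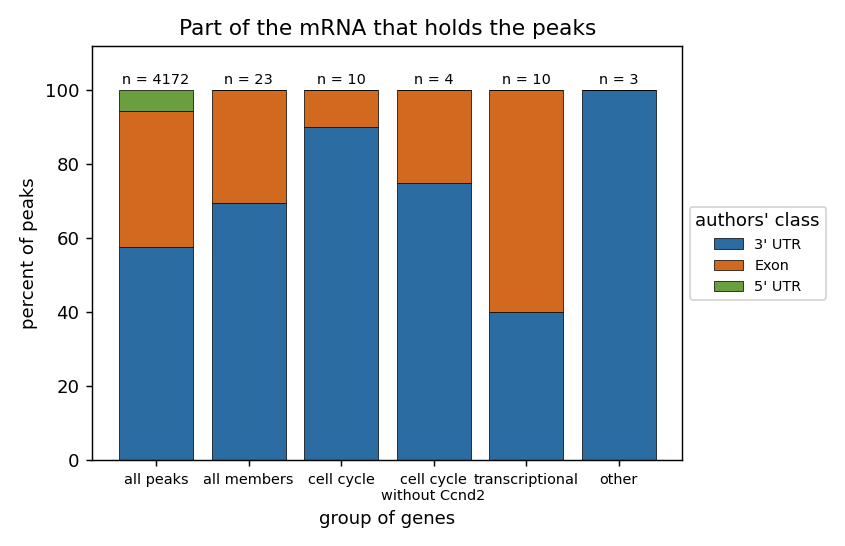
Percent of peaks in each class of the authors (vertical axis) for all listed peaks and for groups of members (horizontal axis), with the number of peaks above each bar. The 3' UTR holds 90% of cell cycle peaks, 75% without Ccnd2, and 40% of transcriptional peaks.

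The folds of both branches lay close together. The median log2 fold was 4.19 for the 10 cell cycle peaks and 4.21 for the 10 transcriptional ones, a difference of -0.022. With 1 peak per gene the sign turned (0.0091). By -log10 p the cell cycle peaks had a median of 5.11 and the transcriptional ones of 3.51, and values of at least 5 were reached by 5 and 2 peaks. Over all peaks the median was 5.68 and 56.8% reached 5, so the cell cycle share of 50% was near that of the list. Of those 5 cell cycle peaks 4 were on Ccnd2, and without Ccnd2 the cell cycle median was 4.12. At the most common -log10 p, 3.27, stood 2 cell cycle and 4 transcriptional peaks.

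**Figure D4:**
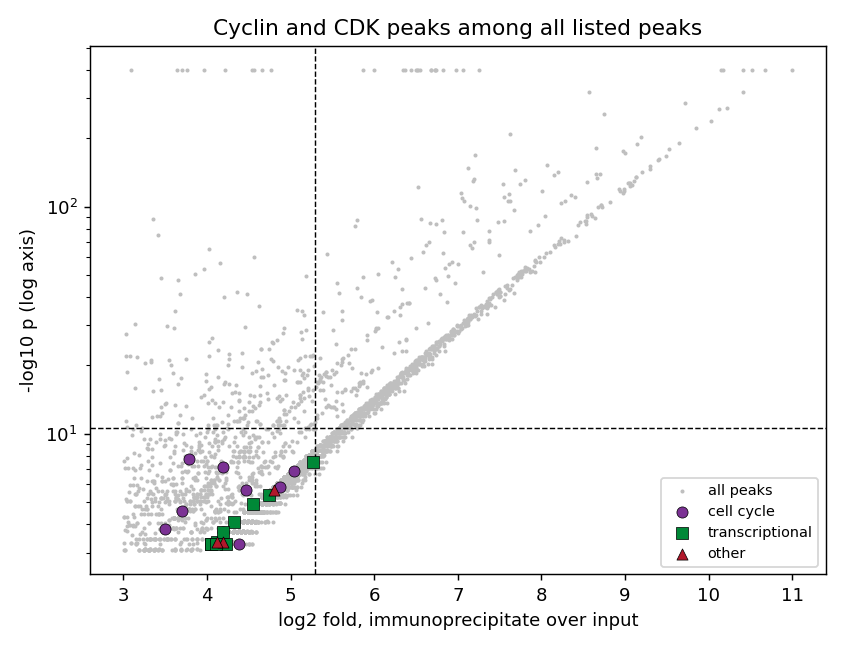
Log2 fold (horizontal axis) and -log10 p (vertical axis, log scale) of all 4172 listed peaks in grey and of the 23 member peaks in colour by role; dashed lines mark the upper quartiles of all peaks (5.29 and 10.6). All member peaks lie below both lines, and the Cdk2 peak has a low fold with the highest -log10 p among them.

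Genes that act on or with cyclins and CDKs were listed at shares from 12.5% to 37.5% in 5 lists, beside the 7.33% of all protein-coding genes. The lowest share, that of the Rb and E2F group, is near this background. Those of the CDK phosphorylation and binding partners (16.7%) and of cyclin degradation (20%) rest on 3 and 4 listed genes. No intervals were taken for these lists, so none of their shares is shown to differ from the background. Of 8 CDK inhibitors 3 had a peak. Cdkn1a, which encodes p21 and is induced by p53, had 8 peaks, 4 in the 3' UTR and 4 in the 5' UTR, with a log2 fold up to 5.83, above every member's. Cdkn2c (4.32) and Cdkn1b (4.11), which encode p18 and p27, had 1 peak each in the 3' UTR. Of 18 phosphatases, kinases and binding partners of CDKs 3 were listed. Cdc25c, which activates Cdk1, had 3 peaks in the 5' UTR (up to 4.96), Pkmyt1, which inhibits Cdk1, had 2 in exons (up to 4.85), and Cdk5rap1 had 1 in an exon (4.92).

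In the Rb and E2F group, which holds targets of cyclin D kinases and E2F family transcription factors among others, 2 of 16 genes had a peak. E2f8, a repressor of cell cycle genes, had 2 peaks in the 3' UTR with a log2 fold up to 7.66, and Tfdp1, the E2F partner, had 4 there (up to 5.55). Of 20 genes of cyclin degradation 4 were listed: the ubiquitin ligase subunit gene Skp1 (3 peaks, up to 6.51), Cdc27 of the anaphase-promoting complex (2, up to 4.72), Fbxw7, which targets cyclin E (1, 4.38), and Fbxo5 (1, 4.11). Of 23 partners of the transcriptional CDKs 5 were listed. Ell2 of the super elongation complex led with 4 peaks in the 3' UTR and a log2 fold up to 7.12. Then came Med13l (4.79) and Med13 (4.43) of the Mediator kinase module and Aff4 (4.32), a scaffold of the super elongation complex, with 1 peak each. E2f8, Ell2, Skp1, Cdkn1a and Tfdp1 thus each had a peak stronger by fold than any on a cyclin or CDK gene other than Cdk6. The other listed genes of these pathway lists had none. The strongest member peak, that of Ccnl2, exceeded 74.4% of all listed peaks, so stronger peaks are common in the list.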

How the data were processed

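NAT10 eCLIP of 32D cells was summarised by the authors in 1 peak list for 4 libraries. Per the file headers each peak has a p and a fold. The p deposited by the authors always exceeds 3 and was read as -log10 p (ceiling 400); the sources used here do not say whether it was adjusted. The fold deposited by the authors was read as log2, from its steps of 0.5. The submitters' processing notes name the build GRCm39; aligner, peak caller, cut-offs and how replicates were joined: not given in the sources used here.

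All 4206 rows were reduced to 4172 distinct peaks; no member peak was listed under 2 gene identifiers. Positions count from 1. Symbols were matched to the RefSeq table of GRCm38.p6 (1609 of 1626), which served for names, gene types, spans and overlaps only. Cdk7 and Ccnh were counted as transcriptional. Every listed member is described, and of each pathway list the up to 4 genes with the strongest peak; 1 gene of these lists is not reported here. Members, roles and lists were chosen with earlier results of these data known. No sequence is shown, since no genome of the files' build was used here. Analyses ran in Python 3.11.15 with pandas 2.3.3 and scipy 1.17.1, and functions were tested on simulated data. Alternatives used stronger peaks, merged peaks, 1 peak per gene or no Ccnd2.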

Additional observations from a re-analysis of the deposited data

How the results depend on the processing

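No paired analysis was possible because the deposited list has no value per library, and for the same reason no library could be left out. With peaks above the list's median fold, 4 members had a peak (1 cell cycle, 2 transcriptional) on 5 peaks, while 3.95% of protein-coding genes had such a peak; with a -log10 p of at least 5, 5 members did (2 and 2) on 8 peaks, against 4.1%; with 2 or more separate regions, 5 members (2 and 2). Merging touching peaks or peaks within 100 nt left 22 and 21. The 3' UTR share of all member peaks, 69.6%, ran from 57.1% to 75% over its alternatives. Settings for each branch were chosen after seeing the data. Under both stricter settings the 3' UTR share was 100% for cell cycle peaks (2 and 5 peaks) and 0% for transcriptional peaks (2 peaks each). These cell cycle peaks lay on Ccnd2 alone by fold and on Ccnd2 and Cdk2 by p. The transcriptional ones lay on Ccnl2 and Cdk13, so the contrast rests on very few genes. With 1 peak per gene the shares were 75% and 37.5%. The median log2 fold of member peaks was 4.77 with a -log10 p of at least 5 and 4.28 with 1 peak per gene. The difference of medians, cell cycle minus transcriptional, was -0.022; it was 0.0091 with 1 peak per gene, -0.14 with the median peak of each gene, -0.23 without Ccnd2 and -0.54 with a -log10 p of at least 5. The cause of these shifts was not tested. Counting Cdk7 and Ccnh as cell cycle members could not change the difference of medians, as neither has a peak. The share of listed members in each branch depends on this choice and was not recomputed with it.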
